A study of Mus musculus with 5 samples.

Results

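Contacts between the promoter region of Pik3r1 and the body of the same gene were measured by 4C-seq, which crosslinks chromatin, ligates nearby DNA and counts the fragments joined to a bait. The gene body set held every DpnII restriction fragment whose midpoint fell in the Pik3r1 span (mm10, chromosome 13, 101680761 to 101768217) and lay more than 10 kb from the bait at 101766365. The cut at 10 kb leaves out fragments next to the bait. It left 155 of the 178 fragments in the span, out of 292200 fragments on chromosome 13 and 7284 within 1.5 Mb of the bait on either side. The bait lies 1852 bp from the higher-coordinate end of the gene, where the annotated long transcript starts, so the set runs from 10 kb to 85.6 kb into the gene. The rule for these fragments uses position only, though it was set with earlier results of these data known.

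Pik3r1 encodes p85α, the regulatory subunit that holds the catalytic subunit of phosphoinositide 3-kinase and brings it to tyrosine-phosphorylated receptors and adaptors after insulin or other growth signals. Shorter regulatory subunits are made from transcripts that begin at internal start sites of the same gene. In skeletal muscle Pik3r1 is known as a gene that glucocorticoids induce, and in thymocytes the kinase acts downstream of antigen and cytokine receptors.

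The 5 libraries came from mice of strain C57/Bl6. WT muscle (2 libraries) was skeletal muscle nuclei of wild-type mice aged 10 to 12 weeks, and GRko muscle (2 libraries) was the same tissue at the same ages with the genotype KO, where GR is taken from knowledge of the study to mean glucocorticoid receptor. The deleting Cre or its driver is not named in the labels. DP thymocytes (1 library) were CD4+/CD8+ cells sorted from the thymus of wild-type mice aged 4 weeks, so tissue, age and sorting differ together from muscle and cannot be told apart. No treatment is named for any group, and whether replicates came from separate mice is not stated, so the p-values reflect library-to-library spread, which may be technical. The receptor gene is not on chromosome 13, so these counts do not check the genotype.

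Chromosome 13 reads ranged from 1317351 in GRko muscle 2 to 8993436 in DP thymocytes, and reads within 1.5 Mb of the bait, the 10 kb around it left out, from 634064 to 4902222 in the same libraries. These reads within 1.5 Mb are the denominator of every share below unless another is named. Of the 7284 fragments there, a read was found in 4172 for DP thymocytes, 3100 and 1626 for WT muscle 1 and 2, and 2205 and 1062 for GRko muscle 1 and 2. With the bait sequence trimmed off, reads measured 29 nt in the thymocyte library and in the first library of each genotype, and 23 nt in WT muscle 2 and GRko muscle 2. Paired values below give replicate 1 first. The counts carry no molecular identifiers, so PCR copies cannot be told from separate ligation products and intervals on reads cover counting error only.

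The annotation holds promoters for 2 start sites of Pik3r1, on the minus strand, and both are shown because the first lies beside the bait and the other far along the gene. The long-transcript start at 101768217 lies beside the bait, with its promoter at chr13:101768168-101768467. The internal start at 101692630, whose promoter spans chr13:101692581-101692880, lies 73.7 kb into the gene, inside the contacts measured here. Both are RefSeq sequences in GRCm38.p6 coordinates, which are those of mm10, written 5′ to 3′ on the gene's strand from 250 bases before the start to 50 after it. Capitals mark GC boxes (GGGCGG, searched on both strands) and the DpnII site (GATC, the same on both strands).
long-transcript start: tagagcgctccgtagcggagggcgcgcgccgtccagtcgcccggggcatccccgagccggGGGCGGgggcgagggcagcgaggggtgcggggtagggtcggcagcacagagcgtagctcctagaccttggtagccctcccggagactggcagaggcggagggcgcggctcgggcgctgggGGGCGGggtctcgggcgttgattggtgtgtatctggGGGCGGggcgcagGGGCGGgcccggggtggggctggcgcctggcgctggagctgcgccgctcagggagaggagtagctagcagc
internal start: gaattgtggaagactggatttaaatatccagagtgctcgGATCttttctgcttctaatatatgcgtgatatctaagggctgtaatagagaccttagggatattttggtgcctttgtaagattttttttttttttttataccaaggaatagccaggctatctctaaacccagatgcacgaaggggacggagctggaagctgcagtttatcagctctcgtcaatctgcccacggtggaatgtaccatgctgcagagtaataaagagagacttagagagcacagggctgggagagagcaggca
The long-transcript promoter held 34 CpG dinucleotides, 4 GC boxes and a GC content of 75.7%, and the internal promoter 6 CpG dinucleotides, 0 GC boxes and a GC content of 43.7%. A GC box was present in 35.7% of 32851 RefSeq promoters of the same length and a DpnII site in 48.0%. The hexamer AGAACA, which the glucocorticoid receptor is known to bind in pairs, searched on both strands, occurred in neither promoter and in 19.0% of all promoters. These matches describe the letters of the 300 bases shown and nothing else.

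The gene body ranked among the strongest stretches of contact within 1.5 Mb in every library. It held 866891 reads in DP thymocytes, 318963 and 146205 in the WT pair, and 252559 and 119675 in the GRko pair. Per fragment this was 8.31 times the library's mean within 1.5 Mb in DP thymocytes, 5.19 and 5.14 times in the WT pair, and 6.98 and 8.87 times in the GRko pair. When the region was tiled with 40 windows of the same 75.6 kb length, the outermost on each side shorter, the gene body ranked 1 by reads per fragment in DP thymocytes and in both GRko libraries and 2 in both WT libraries. The window at the same distances on the other side of the bait took the other of the top ranks in each library. The window just past the gene's end, at the next distance, was lower than the gene body by a factor of 6.21 in DP thymocytes, 6.09 and 2.86 in the WT pair, and 7.61 and 13.6 in the GRko pair. Contact in a 4C profile generally falls with distance from the bait, and these ranks were not corrected for distance.

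As a share of reads within 1.5 Mb, the gene body took 17.7% in DP thymocytes (95% Wilson interval 17.6 to 17.7%), 11.0% and 10.9% in the WT pair, and 14.9% and 18.9% in the GRko pair. Both GRko libraries were above both WT libraries, and the thymocyte share lay between those of the GRko libraries. WT muscle averaged 11.0% ± 0.0696 (SD, n = 2) and GRko muscle 16.9% ± 2.84 (SD, n = 2), a difference of 5.88 percentage points. By the exact two-sided permutation test p was 0.333, the smallest value that 2 against 2 libraries allow. The difference was 3.83 points between the libraries with 29-nt reads and 7.94 points between those with 23-nt reads. DP thymocytes exceeded the WT muscle mean by 6.70 points, a difference with no test because there was 1 thymocyte library.

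**Figure D1:**
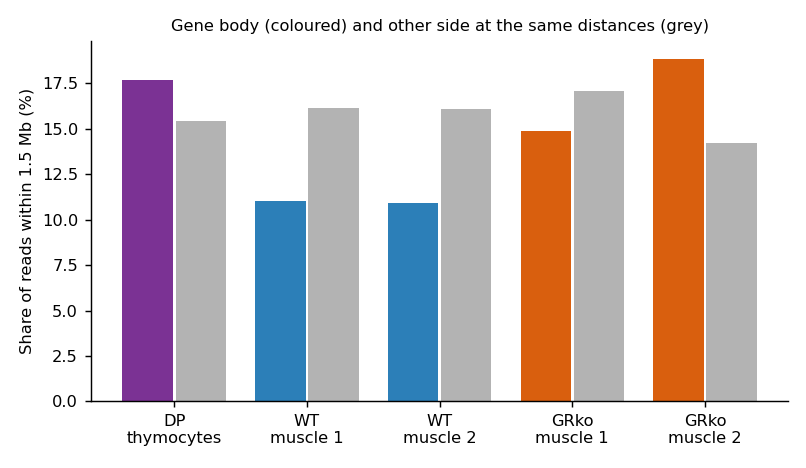
Share of reads within 1.5 Mb of the bait (vertical axis, percent) in the Pik3r1 gene body (coloured bars) and at the same distances on the other side of the bait (grey bars), 1 pair of bars per library, with no error bars because each bar is 1 library. The coloured bars of WT muscle stand at 11.0% and 10.9%, below those of GRko muscle at 14.9% and 18.9% and of DP thymocytes at 17.7%, while the grey bars run from 14.2% to 17.1%.

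The share depended on how reads were weighed. Counting each covered fragment once, the gene body made up 3.64% of covered fragments in DP thymocytes, 4.52% and 7.01% in the WT pair, and 5.99% and 9.13% in the GRko pair. The WT and GRko ranges then overlapped, the genotype difference was 1.80 points (exact permutation p = 0.667), and the difference of DP thymocytes from WT muscle was -2.12 points. For thymocytes this measure was at its limit: 152 of 155 gene body fragments were covered, and all 155 would have made 3.72% of its covered fragments, below the WT mean of 5.76%. Its sign therefore says nothing about lower contact. When only the 1062 fragments of most reads were kept in each library, a comparison added after the data were seen, the gene body share of the kept fragments was 9.60% in DP thymocytes, 7.44% and 8.19% in the WT pair and 8.29% and 9.13% in the GRko pair. The genotype difference was 0.895 points and the thymocyte difference 1.79 points on that scale. The share of covered fragments was lower the more fragments of the region a library covered, while the equal-number shares followed no such order. The part of coverage in the share of reads was not tested.

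The other side of the bait served as a measure of distance decay in the same library. The 195 fragments between 10 kb and 85.6 kb on that side held 15.4% of reads in DP thymocytes, 16.2% and 16.1% in the WT pair, and 17.1% and 14.2% in the GRko pair. The WT and GRko ranges overlapped there. Per fragment, the log2 ratio of gene body to other side was 0.53 in DP thymocytes, -0.22 and -0.23 in the WT pair, and 0.13 and 0.74 in the GRko pair. In total reads, the other side was higher in the WT pair and in GRko muscle 1 (17.1% against 14.9%). Per fragment, the gene body was the lower side in both WT muscle libraries and the higher side in the other 3 libraries. That split did not hold with capped fragments, where GRko muscle 1 stood at -0.0083, or with covered fragments, where all 5 libraries were above 0 and the WT pair at 0.077 each. The groups averaged -0.22 ± 0.0056 in the WT pair and 0.43 ± 0.43 in the GRko pair (SD, n = 2 each), and their difference of 0.66 had an exact two-sided permutation p of 0.333. It was 0.35 with 29-nt reads and 0.96 with 23-nt reads, and DP thymocytes stood 0.75 above WT muscle.

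The window test set the gene body against windows of its own size. With edgeR's quasi-likelihood test, the Pik3r1 window was higher in GRko than in the WT pair by a log2 ratio of 0.62 ± 0.183 (SE), unadjusted p = 0.0232 and Benjamini-Hochberg adjusted p = 0.465 over 40 windows. It did not pass the threshold of 0.05, and edgeR called 0 of 40 windows (0%), with 2 windows (5%) at an unadjusted p under 0.05. DESeq2 called 3 windows (7.5%), 1 of them higher in GRko (2.5%): the Pik3r1 window, at 0.75 ± 0.183 and adjusted p = 0.000771. The call also appeared in edgeR without GRko muscle 1 (0.78, adjusted p = 1.1e-30) and without GRko muscle 2 (0.44, adjusted p = 8.62e-16), where the spread came from the close WT pair alone. It did not appear without WT muscle 1 (0.63, adjusted p = 0.707), without WT muscle 2 (0.61, adjusted p = 0.955) or with covered fragments (0.39, adjusted p = 0.984). The window on the other side of the bait differed by -0.041 ± 0.159 with adjusted p = 0.950 in edgeR. GRko was above WT muscle in every pair of libraries in 4 of 40 windows (10%), the Pik3r1 window among them.

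Between DP thymocytes and WT muscle, the Pik3r1 window had an edgeR log2 ratio of 0.69 ± 0.206 (SE), unadjusted p = 0.0251 and adjusted p = 0.288, with the thymocyte library assumed to vary like the muscle libraries. edgeR called 0 of 40 windows (0%), while the unadjusted p was under 0.05 in 4 (10%). By DESeq2, 10 windows passed (25%), 4 of them higher in thymocytes (10%), including the Pik3r1 window at 0.77 ± 0.269 and adjusted p = 0.0313. edgeR called it too without GRko muscle 1 (0.69, adjusted p = 3.02e-32) or GRko muscle 2 (0.69, adjusted p = 3.14e-28), where again only the WT pair gave the spread, but not without WT muscle 1 (0.69, adjusted p = 0.520) or WT muscle 2 (0.68, adjusted p = 0.585). Against all 4 muscle libraries the ratio was 0.38 ± 0.187 (adjusted p = 0.362). With covered fragments, where thymocytes were at the limit described above, it was -0.63 (adjusted p = 0.197). Both comparisons share the WT muscle libraries.

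Along the gene, contact peaked between 10 and 40 kb in every library and was low at the gene's end. Reads per fragment in 10 kb steps are given relative to the library's mean within 1.5 Mb. From 10 to 20 kb they stood at 11.1 in DP thymocytes, 8.63 and 7.35 in the WT pair, and 7.56 and 18.8 in the GRko pair. From 20 to 30 kb they were 13.3, then 8.24 and 8.80, then 15.1 and 16.5 in the same order. This step was among the top 2 of the 8 in every library. From 30 to 40 kb the levels were 13.6 in DP thymocytes, 7.77 and 7.51 in the WT pair, and 12.9 and 9.62 in the GRko pair. From 40 to 50 kb they were 7.97, then 4.85 and 2.47, then 5.39 and 7.43. In the step from 40 to 50 kb the WT libraries were further apart than in the 3 nearer steps.

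In each of the 4 steps past 50 kb the WT and GRko libraries overlapped. From 50 to 60 kb the level was 6.61 in DP thymocytes, 4.86 and 2.79 in the WT pair, and 7.74 and 1.46 in the GRko pair. From 60 to 70 kb the share of reads within 1.5 Mb was 1.74% in DP thymocytes, 0.696% and 1.72% in the WT pair, and 0.653% and 2.39% in the GRko pair. In this step the second library of each genotype stood above the first, and both of those carry 23-nt reads. Much of the WT muscle 2 share came from 1 fragment, at 61.52 kb, without which it was 0.750%. From 70 to 80 kb, which holds the internal start site, the level was 4.49 in DP thymocytes, 2.65 and 3.11 in the WT pair, and 1.94 and 3.46 in the GRko pair. The last 5.6 kb stood at 1.45, then 1.16 and 2.71, then 1.91 and 0.818. This was the lowest of the 8 steps in DP thymocytes, WT muscle 1 and GRko muscle 2, while the lowest was 40 to 50 kb in WT muscle 2 and 60 to 70 kb in GRko muscle 1. The highest step exceeded the lowest by a factor of 9.35 in DP thymocytes, 7.43 and 3.57 in the WT pair, and 9.24 and 22.9 in the GRko pair.

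**Figure D2:**
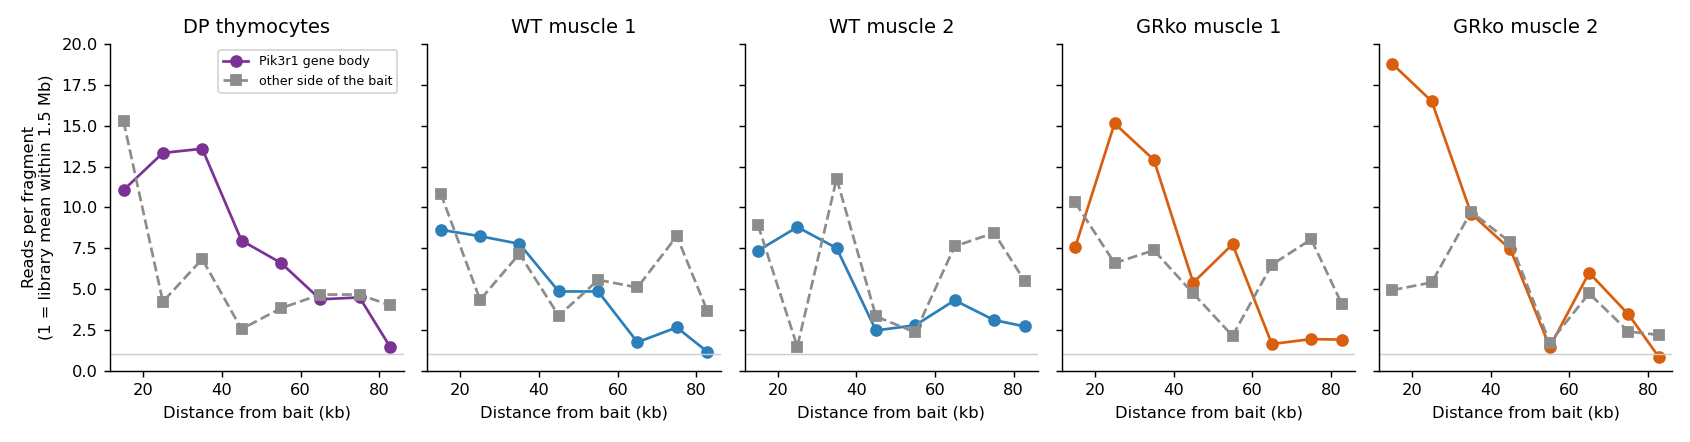
Reads per fragment relative to the library's mean within 1.5 Mb (vertical axis, 1 is the mean) against distance from the bait (horizontal axis, kb) in steps of 10 kb, 1 panel per library, for the Pik3r1 gene body and for the same distances on the other side of the bait. The gene body line is highest between 10 and 40 kb in every panel, at up to 13.6 in DP thymocytes, 8.63 and 8.80 in the WT pair, and 15.1 and 18.8 in the GRko pair.

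The profile did not fall evenly with distance. Of the 7 steps between neighbours, 4 were falls in DP thymocytes, 5 and 4 in the WT pair, and 4 and 6 in the GRko pair. The gene body exceeded the other side of the bait in 4 of 8 steps in DP thymocytes, 3 and 2 in the WT pair, and 4 and 4 in the GRko pair. The step from 20 to 30 kb was above the other side in all 5 libraries, with log2 ratios of 1.66 in DP thymocytes, 0.92 and 2.58 in the WT pair, and 1.20 and 1.61 in the GRko pair. The last 5.6 kb was below it in all 5, at -1.46, then -1.65 and -1.02, then -1.10 and -1.42. The step from 70 to 80 kb was below it in 4 libraries and above it, by 0.52, in GRko muscle 2.

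GRko muscle exceeded WT muscle in every pair of libraries in 3 of the 8 steps, 20 to 30, 30 to 40 and 40 to 50 kb, against 11.5% of all 270 bins tested. In shares of reads within 1.5 Mb, the step from 20 to 30 kb took 2.49% and 2.66% in the WT pair and 4.57% and 4.98% in the GRko pair, with 4.03% in DP thymocytes. The step from 30 to 40 kb took 2.13% and 2.06% in the WT pair, 3.54% and 2.64% in the GRko pair and 3.73% in DP thymocytes. The step from 40 to 50 kb took 1.47% and 0.745% in the WT pair, 1.63% and 2.24% in the GRko pair and 2.41% in DP thymocytes. The groups overlapped in the other 5 steps. No gene body step lay below WT muscle in every pair, against 18.1% of all bins.

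None of the 8 gene body steps passed the test. edgeR called 0 of 270 bins (0%) between the genotypes, with an unadjusted p under 0.05 in 7 bins (2.59%) and in 0 of the 8 gene body steps. By DESeq2, 13 bins passed (4.81%) and 0 of the gene body steps. The smallest edgeR p in the gene was that of 20 to 30 kb, with a log2 ratio of GRko to WT muscle of 0.89 ± 0.463 (SE), unadjusted p = 0.0689 and adjusted p = 0.993. The other ratios were 0.72 ± 0.547 at 10 to 20 kb, 0.56 ± 0.547 at 30 to 40 kb, 0.81 ± 0.717 at 40 to 50 kb and 0.27 ± 1.00 at 50 to 60 kb. They were 0.33 ± 0.810 at 60 to 70 kb, -0.095 ± 1.07 at 70 to 80 kb and -0.51 ± 2.03 at the gene's end. Ratios were above 0 in 6 of 8 steps, against 44.1% of all bins, and their median was 0.45 against -0.17 over all bins. Under TMM scaling the median of all bins moved to 0.032, the step at 70 to 80 kb turned to 0.13, and 7 of 8 ratios were above 0.

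DP thymocytes exceeded all 4 muscle libraries in 3 of the 8 steps, 30 to 40, 40 to 50 and 70 to 80 kb, against 29.2% of 284 bins. The step from 70 to 80 kb took 1.05% of reads in DP thymocytes, 0.619% and 0.725% in the WT pair, and 0.452% and 0.806% in the GRko pair. Against WT muscle, edgeR called 0 of 284 bins (0%), with an unadjusted p under 0.05 in 4 bins (1.41%) and in 0 gene body steps. By DESeq2, 6 bins passed (2.11%) and 0 gene body steps. The edgeR ratios ran from -0.41 ± 2.74 at the gene's end to 1.12 ± 0.819 at 40 to 50 kb, with adjusted p = 0.988 throughout. They were above 0 in 7 of 8 steps, against 53.2% of all bins, with a median of 0.64 against 0.17 over all bins. Against all 4 muscle libraries the ratios at 10 to 20 and 20 to 30 kb were 0.11 and 0.20, where those against WT muscle were 0.47 and 0.65. Counting covered fragments put the 7 ratios below 0, from -0.77 to -0.25, but thymocytes had every fragment covered in 7 of the 8 steps, so in those steps the count could not rise further.

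The distance that splits a library's gene body reads evenly was 33.9 kb in DP thymocytes, 32.6 and 33.9 kb in the WT pair, and 30.7 and 24.5 kb in the GRko pair. By this median distance both GRko libraries lay nearer the bait than both WT libraries. The means were 33.2 ± 0.962 kb in the WT pair and 27.6 ± 4.41 kb in the GRko pair (SD, n = 2 each), a difference of -5.62 kb with an exact two-sided permutation p of 0.333. The difference was -1.82 kb with 29-nt reads and -9.42 kb with 23-nt reads. Capping fragments at the 99th percentile brought it to -1.73 kb and counting covered fragments to -1.71 kb, each with an exact permutation p of 0.667. The first 40 kb of the set, from 10 to 50 kb, held 75.5% of gene body reads in DP thymocytes, 77.7% and 69.3% in the WT pair, and 80.2% and 80.9% in the GRko pair. The GRko libraries were again both above the WT libraries, by 7.07 points between the means (exact permutation p = 0.333).

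**Figure D3:**
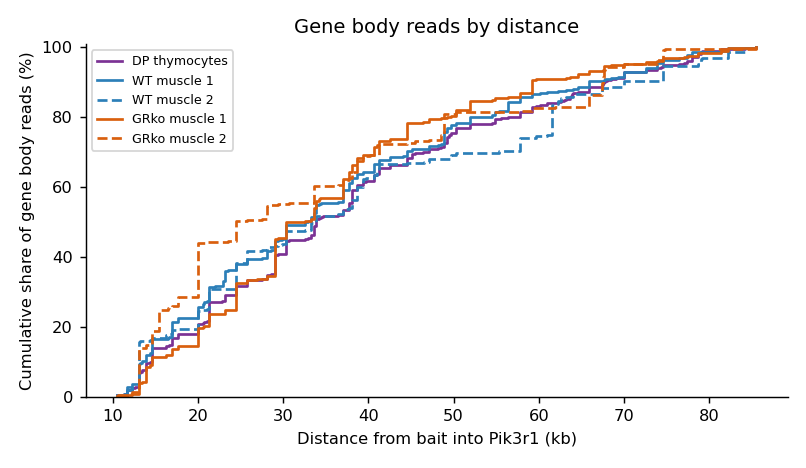
Cumulative share of gene body reads (vertical axis, percent) against distance from the bait into Pik3r1 (horizontal axis, kb), 1 line per library. The lines reach 50% at 33.9 kb in DP thymocytes, 32.6 and 33.9 kb in the WT pair, and 30.7 and 24.5 kb in the GRko pair, and vertical jumps are single fragments.

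Coverage of the gene body was dense in every library. Of the 155 fragments, 152 had a read in DP thymocytes (98.1%), 140 and 114 in the WT pair (90.3% and 73.5%), and 132 and 97 in the GRko pair (85.2% and 62.6%). Within 1.5 Mb the share of fragments covered was 57.3% in DP thymocytes, 42.6% and 22.3% in the WT pair, and 30.3% and 14.6% in the GRko pair. Coverage was therefore higher in the gene body than in the region in each library, and both followed the same order of libraries. Most of the region lies further from the bait. At the same distances on the other side, 89.7% of fragments were covered in DP thymocytes. Coverage there was 85.6% and 69.7% in the WT pair, and 79.0% and 48.2% in the GRko pair. That side was thus also well above the region, though below the gene body, in each library. In the muscle libraries most uncovered fragments lay past 50 kb (11 of 15 and 29 of 41 in the WT pair, 15 of 23 and 39 of 58 in the GRko pair), while all 3 uncovered fragments of DP thymocytes lay nearer. Past 50 kb, 70, 59, 41, 55 and 31 of 70 fragments were covered in DP thymocytes, WT muscle 1 and 2, and GRko muscle 1 and 2. From 10 to 50 kb the counts were 82, 81, 73, 77 and 66 of 85 in the same order.

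Across libraries, 77 of the 155 fragments (49.7%) were covered in all 5, against 5.82% of fragments within 1.5 Mb and 39.0% at the same distances on the other side. Another 39 were covered in 4 libraries, 23 in 3, 11 in 2 and 3 in 1, and 2 had no read in any library. The 77 shared fragments carried 69.4% of gene body reads in DP thymocytes, 75.1% and 77.1% in the WT pair, and 74.5% and 80.2% in the GRko pair. Their median length was about 486 bp and their median distance 34.5 kb. The 16 fragments covered in at most 2 libraries had a median length of about 194 bp and a median distance of 63.2 kb. The share covered in all 5 libraries rose with fragment length, which ranged from 6 to 2424 bp. It was 2 of 25 fragments under 100 bp, 22 of 45 from 100 bp to under 300 bp, 37 of 64 from there to under 1000 bp and 16 of 21 longer ones.

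Read length moved with coverage. Of the 126 gene body fragments covered in all 3 libraries with 29-nt reads, 15 (11.9%) had no read in either library with 23-nt reads. Within 1.5 Mb the share was 32.3%. Of the 84 fragments covered in both 23-nt libraries, 1 (1.19%) had no read in any 29-nt library. The 23-nt libraries were also the shallower of each genotype, so read length and depth cannot be told apart.

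**Figure D4:**
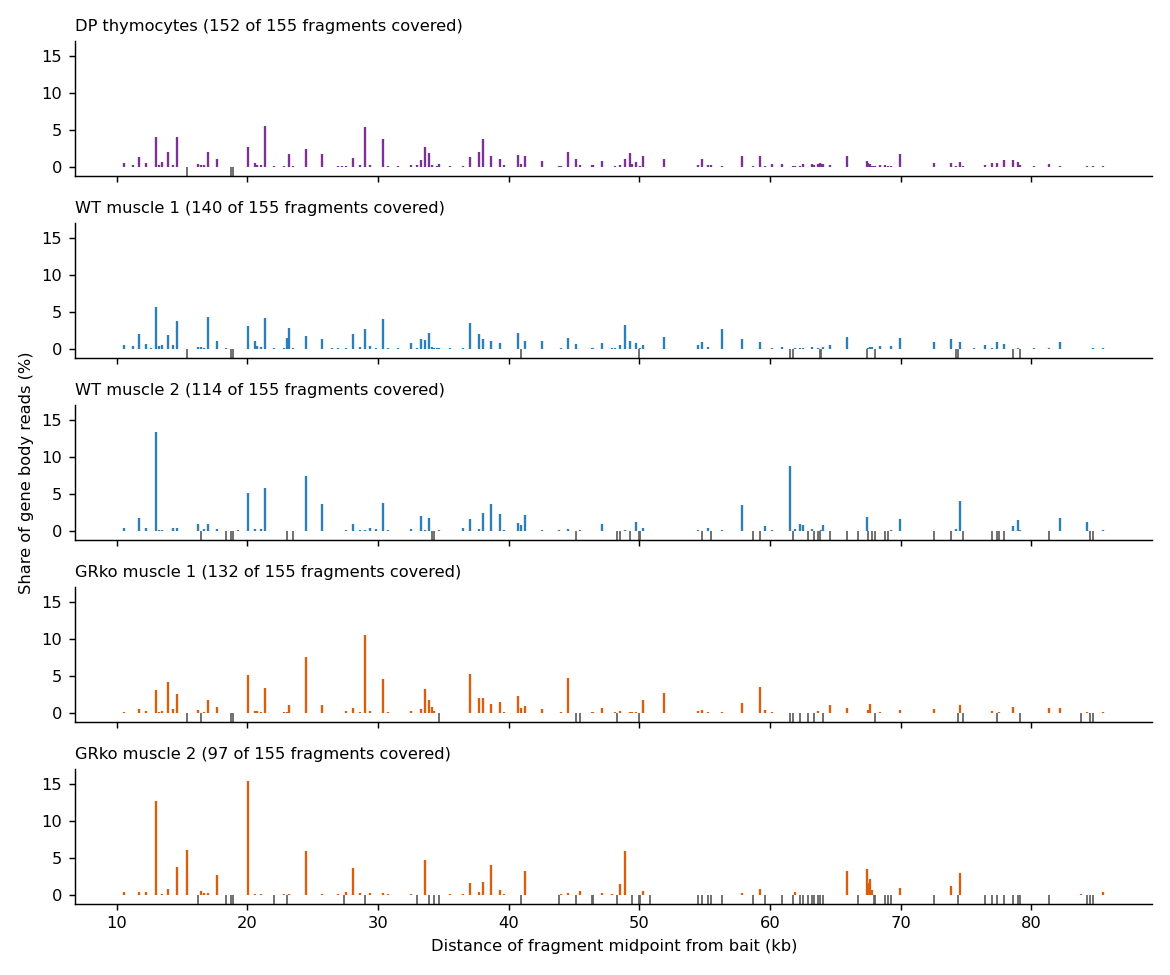
Share of each library's gene body reads (vertical axis, percent) in each of the 155 fragments by distance of its midpoint from the bait (horizontal axis, kb), 1 panel per library, with grey ticks below 0 marking fragments with no read. DP thymocytes and WT muscle 1 show many low bars, 152 and 140 fragments covered, while GRko muscle 2 shows 97 covered fragments and bars up to 15.4%.

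Reads were spread over many fragments in the deeper libraries and gathered in few in the shallower ones. The 10 fragments of most reads held 36.4% of gene body reads in DP thymocytes, 37.4% and 59.1% in the WT pair, and 52.0% and 65.7% in the GRko pair. It took 18 fragments to reach 50% of reads in DP thymocytes, 16 and 8 in the WT pair, and 10 and 6 in the GRko pair. The order of libraries was that of the number of covered gene body fragments.

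The libraries had 4 different leading fragments among them. The fragment at 13.05 kb (midpoint 101753317, about 198 bp) led both WT libraries, with 18104 reads (5.68% of gene body reads) in WT muscle 1 and 19495 (13.3%) in WT muscle 2. It held 35450 reads (4.09%) in DP thymocytes, 7781 (3.08%) in GRko muscle 1 and 15160 (12.7%) in GRko muscle 2. Its share was thus high in both libraries with 23-nt reads, whatever the genotype.

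The fragment at 20.05 kb (midpoint 101746311, about 1022 bp) led GRko muscle 2 with 18401 reads, 15.4% of that library's gene body reads. It held 2.68% in DP thymocytes, 3.14% and 5.10% in the WT pair, and 5.10% in GRko muscle 1. GRko muscle 2 stood apart from the other libraries, and GRko muscle 1 equalled WT muscle 2 to the digits given.

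The fragment at 21.33 kb (midpoint 101745033, about 270 bp) led DP thymocytes with 47545 reads (5.48%). It held 13391 (4.20%) and 8496 (5.81%) in the WT pair, but 8374 (3.32%) in GRko muscle 1 and 1 read in GRko muscle 2. As a share of gene body reads both WT libraries were above both GRko libraries. As a share of reads within 1.5 Mb, at 0.463% and 0.635% in the WT pair and 0.493% and 0.000158% in the GRko pair, the groups overlapped.

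The fragment at 29.02 kb (midpoint 101737349, about 518 bp) led GRko muscle 1 with 26673 reads (10.6%). It held 46661 (5.38%) in DP thymocytes, 8519 (2.67%) in WT muscle 1 and 162 (0.111%) in WT muscle 2. In GRko muscle 2 it had 0 reads. The same genotype thus gave the highest and the lowest value.

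The other fragments of the highest mean share were those at 14.63, 24.51, 30.36 and 37.07 kb. At 24.51 kb (about 1570 bp) the share was 2.40% in DP thymocytes, 1.77% and 7.38% in the WT pair, and 7.63% and 5.95% in the GRko pair. At 30.36 kb it was even in 4 libraries, at 3.84%, 3.98%, 3.77% and 4.53%, and 0.252% in GRko muscle 2. At 37.07 kb it ran from 1.36% in DP thymocytes to 5.33% in GRko muscle 1. At 14.63 kb it was 4.03% in DP thymocytes, 3.79% and 0.428% in the WT pair, and 2.51% and 3.80% in the GRko pair. All 8 leading fragments lay between 13.05 and 37.07 kb.

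**Figure D5:**
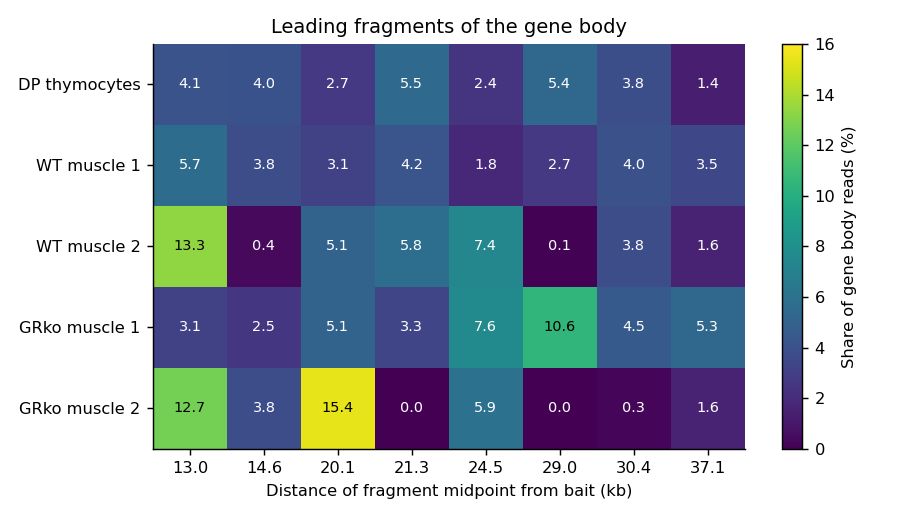
Share of gene body reads (colour scale from 0 to 16%, values printed) in the 8 fragments of highest mean share, ordered by distance of the midpoint from the bait (horizontal axis, kb), 1 row per library. The fragment at 13.05 kb stands at 13.3% in WT muscle 2 and at 12.7% for GRko muscle 2, and the fragment at 29.02 kb at 10.6% in GRko muscle 1 and 0 in GRko muscle 2.

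A pair of fragments, chosen after their values were seen, belonged almost wholly to 1 library each. The fragment at 61.52 kb (midpoint 101704848) had 12936 reads in WT muscle 2, 8.85% of its gene body reads, with 190 in DP thymocytes, 1 in GRko muscle 2 and 0 in the other libraries. Without it the share of WT muscle 2 in the step from 60 to 70 kb fell from 1.72% to 0.750%. The fragment at 15.41 kb (midpoint 101750950) had 7229 reads in GRko muscle 2, 6.04% of its gene body reads, against 1 for WT muscle 2 and 0 for the other 3 libraries. Without it the share of GRko muscle 2 in the step from 10 to 20 kb fell from 5.41% to 4.27%, still above the other 4 libraries, whose shares ran from 2.12% to 3.19%.

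Replicates did not resemble each other more than other libraries did at the level of fragments. Over the 155 fragments, Spearman's rho was 0.40 for the WT pair and 0.45 for the GRko pair. The 3 libraries with 29-nt reads had values of 0.71 to 0.76 among themselves, across tissue and genotype, and all other pairs lay between 0.37 and 0.47. Over the 8 distance steps rho ran from 0.81 to 0.98 for the 10 pairs. These are descriptions across fragments or steps of the same libraries, which share fragment length and distance from the bait.

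At the internal start site, reads on the nearest fragment differed between replicates. The fragment whose midpoint lies nearest it (101692513, about 650 bp, from about 101692188 to 101692838) had 4570 reads in DP thymocytes, 4455 and 0 in the WT pair, and 39 and 1415 in the GRko pair. The 19 fragments within 5 kb of the start held 62328 reads in DP thymocytes, 23504 and 9836 in the WT pair, and 8872 and 6172 in the GRko pair. Per fragment, relative to the 20 fragments on its flanks, this was 1.12 in DP thymocytes, 1.72 and 1.15 in the WT pair, and 0.756 and 0.479 in the GRko pair. In this ratio both WT libraries were above 1 and both GRko libraries below 1. Relative to the mean within 1.5 Mb, the window itself stood at 4.87 in DP thymocytes. It stood at 3.12 and 2.82 in the WT pair and 2.00 and 3.73 in the GRko pair, so the genotypes overlapped. The flanks stood at 4.34, then 1.81 and 2.46, then 2.65 and 7.79. The ratio of window to flanks was not tested, and its windows were not set against other places in the region.

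The gene's end did not mark a common step in contact. Over the 5 kb on either side of it, reads per fragment inside the gene were 0.673 times those outside in DP thymocytes, 0.587 and 0.563 times in the WT pair, and 0.678 times in GRko muscle 1, while GRko muscle 2 had 2 reads outside. Over the 10 kb on either side the ratio was 1.78 in DP thymocytes, 0.610 and 0.615 in the WT pair, and 0.691 in GRko muscle 1. In GRko muscle 2 the ratio was 64.0, where 16 fragments outside held 9 reads in all. Over 20 kb the ratios were 2.42 in DP thymocytes, 1.45 and 1.23 in the WT pair, and 1.24 and 3.47 in the GRko pair. The inside was then higher in all 5 libraries, and it also lies nearer the bait.

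The genes whose pattern over the 5 libraries lay closest to that of Pik3r1 were Gm36553, LOC105245613 and Gm36427, all 3 annotated as long noncoding RNAs, as were 17 of the 26 genes compared. Likeness was the Euclidean distance between centred log2 shares over the 5 libraries, among 26 other annotated genes within 1.5 Mb with at least 10 reads in every library. Gm36553 (101589833 to 101613282) was closest at 0.69, with shares of 1.31% in DP thymocytes, 0.472% and 0.440% in the WT pair, and 0.722% and 0.892% in the GRko pair. LOC105245613, which has only 4 fragments, followed at 0.95 and Gm36427 at 1.28. In Gm36553, as in Pik3r1, both GRko libraries were above both WT libraries, but DP thymocytes were above them all. Gm36553 was picked for likeness over these same libraries, so the shared order is no separate observation.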

How the data were processed

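The authors deposited, for each of the 5 libraries, raw read counts per DpnII fragment of chromosome 13, with line 1 giving the bait, per the file headers. Per the submitters' processing notes the tools were bcl2fastq and Bowtie 1.0.0 and the build mm10. The assignment of reads to fragments is not given in the sources used. DpnII and Csp6I were the restriction enzymes, per the labels' protocols. In 344 of 344 pairs of DpnII sites found in RefSeq promoters of the chromosome, a listed position was the midpoint within 0.5 bp, so positions were taken as midpoints, and fragment ends were rebuilt from them (571 checks, median error 1 bp, largest 13 bp).

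Counts within 1.5 Mb, without the 10 kb around the bait, were summed in 10 kb bins counted from the bait and cut at the gene's end, and in gene-sized windows. Bins and windows reaching 10 reads in 2 or more libraries entered edgeR's quasi-likelihood test (edgeR 4.0.16, R 4.3.3), with these reads as library size and Benjamini-Hochberg adjustment at 0.05 over all bins or windows. GRko was compared with WT in the 4 muscle libraries, and thymocytes with WT muscle in all 5. For shares, ratios and median distances the test was an exact permutation test, two-sided. Both procedures were tested on simulated data. The changes simulated for edgeR were larger than any gene body difference reported here, so they do not show whether differences of this size can be detected. With 2 against 2 libraries the permutation test cannot give a p under 0.333. Named fragments were the 8 of highest mean share of gene body reads and the first of each library. Named genes were the 3 most like Pik3r1. The members and lists were chosen with earlier results of these data known.

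Alternatives were TMM, DESeq2 1.42.0, all chromosome 13 reads as total, no filter on low counts, bins of 5 and 20 kb, 25 kb left out, fragments capped at the 99th percentile, covered fragments, no leading fragment, each replicate left out, thymocytes against all 4 muscle libraries, and the replicate number as a block. DESeq2 used its own library scaling in place of the reads within 1.5 Mb. Keeping the same number of fragments per library was added after the data were seen. Deviations of same-numbered muscle libraries from their group means correlated at 0.0955 over 270 bins and 0.103 over 40 windows. With only 2 pairs, and no label saying that a number marks a shared source, the numbers were not taken as pairs. Exons and introns were not used here.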

Additional observations from a re-analysis of the deposited data

Results flagged for a closer look

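The log2 ratio of gene body reads to reads at the same distances on the other side of the bait was taken per fragment. It was below 0 in both WT muscle libraries (-0.22 and -0.23) and above 0 in both GRko muscle libraries (0.13 and 0.74). The means differed by 0.66. It stands here because, per fragment, every library of each genotype lay on its own side of 0. In total reads that split was absent, as GRko muscle 1 held 252559 in the gene body and 290811 on the other side. Beyond the exact two-sided permutation test (p = 0.333, the smallest possible), the difference was not tested. The split was lost with capped fragments, where GRko muscle 1 stood at -0.0083, and with covered fragments, where the WT pair stood at 0.077 each and all 5 libraries were above 0 (difference 0.17).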

How the results depend on the processing

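The mean gene body share stayed higher in GRko than in WT muscle under every alternative tried. The difference ran from 0.895 points (same number of fragments per library, added after the data were seen) to 7.89 points (without GRko muscle 1). It was 3.88 points at the lowest when 1 replicate was left out. With covered fragments it was 1.80 points and the genotypes overlapped (exact permutation p = 0.667). With the same number of fragments, WT muscle 2 at 8.19% was close to GRko muscle 1 at 8.29%. The thymocyte difference from WT muscle was 6.31 points with 25 kb left out, 4.03 with all chromosome 13 reads, 3.47 with capped fragments, 6.83 without the fragment of most reads and 1.79 with the same number of fragments, and it was -2.12 with covered fragments, a measure at its limit in thymocytes (152 of 155 covered), which sets that sign. Its ratio to the other side of the bait moved to 1.23, 0.57 and 0.051 with 25 kb left out, capped and covered fragments. The thymocyte difference in median distance, 0.68 kb, reversed to -4.56 kb with 25 kb left out, and was 3.88 and 4.81 kb with capped and covered fragments. Where no value above shows it, the cause was not tested.

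Calls depended on the tool, and DESeq2 also used its own library scaling, so tool and scaling changed together. DESeq2 called 13 and 6 bins where edgeR called 0, and 3 and 10 windows where edgeR called 0, with the Pik3r1 window at 0.75 between the genotypes and 0.77 between thymocytes and WT muscle. With 1 replicate left out, edgeR called 0 to 4 windows in each comparison, and the Pik3r1 window ranged from 0.44 to 0.78 between the genotypes and from 0.68 to 0.69 for thymocytes. Called windows without GRko muscle 1 and 2 numbered 4 and 2 between the genotypes, and 4 and 3 for thymocytes. With covered fragments 1 window was called for thymocytes, and the Pik3r1 window stood at -0.63, on the same limited measure. Against all 4 muscle libraries that window stood at 0.38.

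Single steps past 50 kb changed sign readily between the genotypes. The 70 to 80 kb step turned to 0.13 with TMM, 0.26 with DESeq2 and 0.40 with covered fragments, and the gene's end to 0.084 with covered fragments. With 1 replicate left out, the ranges were -0.080 to 1.23 at 10 to 20 kb, -1.39 to 1.02 at 50 to 60 kb, -0.89 to 1.13 at 60 to 70 kb, -0.57 to 0.26 at 70 to 80 kb and -1.24 to 0.23 at the gene's end. For thymocytes the gene's end ranged from -0.90 to 0.32. With covered fragments the thymocyte steps from 10 to 80 kb were -0.77, -0.75, -0.74, -0.64, -0.43, -0.25 and -0.25. The steps from 20 to 80 kb were at that limit, with every fragment covered in thymocytes. At 10 to 20 kb 18 of 21 fragments were covered.

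With the replicate number as a block, edgeR called 0 bins and 0 windows between the genotypes, the Pik3r1 window stood at 0.61 ± 0.187 (adjusted p = 0.761), and the step from 50 to 60 kb reversed to -0.13. The pairing rests on shared numbers and read length only. In the shallower libraries 97 (GRko muscle 2) and 114 (WT muscle 2) of 155 fragments had a read. The covered fragments held means of 1233.8 and 1282.5 reads. A missing read there does not show that contact was absent, and why fragments had no read was not tested.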
